A study of Mus musculus with 8 samples.

Results

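The small nuclear RNAs (snRNAs) of cultured mouse fibroblasts were taken as the features that the deposited small RNA table types as snRNA. They were 125 of its 2403 features. Of these, 41 held at least 10 normalized counts in at least 2 of the 8 libraries and were tested, together with all other features past the same filter (1540 in all). The other 84 had means between 1.0 and 6.0 normalized counts, with no single value above 12, and were not tested. The filter was applied over all libraries, so a feature could pass through a single group, as 1 of the 41 did.

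The cells were immortalized fibroblasts from mouse skin. Those with the mir210lox/lox genotype, titled KO, carry a floxed gene of the hypoxia-responsive microRNA miR-210. The wild-type cells (WT) came from C57BL/6 mice. The labels name neither the Cre nor the number of clones, cultures or animals behind each genotype. The 4 groups were KO in hypoxia (1% O2), KO in normoxia (21% O2), WT in hypoxia and WT in normoxia, each for 24 h and each with 2 libraries. The comparisons ask how the small RNAs differ with the loss of miR-210 and with low oxygen. The labels do not state whether the 2 libraries of a group are separate cultures, so a p-value here reflects only how far these libraries differ from each other, which may be technical.

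Normalized counts of a library summed to 8618630 to 12167438. The targeted microRNA, miR-210-3p, had 10, 32, 23 and 14 normalized counts in the KO libraries, against 4786 to 39011 in the WT libraries, as labelled. The 7 microRNAs taken as fibroblast and mesenchymal markers summed to 3642890 to 5615005 normalized counts in each library. Markers of other cell types summed to 100 to 290 for epithelial, 37 to 84 for haematopoietic, 102 to 191 for endothelial, 114 to 275 for muscle and 397 to 857 for neural cells. KO hypoxia library 1 stood apart in ribosomal RNA, which took 5.763% of its total, against 1.689% to 2.882% in the other libraries.

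snRNAs are short nuclear RNAs that work as RNA-protein particles. U1 pairs with the donor splice site and U2 with the branch point of an intron. U6 forms much of the catalytic centre of the spliceosome, and U5 holds the exons in place. U11 and U12 take the parts of U1 and U2 in the minor spliceosome, which removes a small class of introns. U7 acts in the processing of histone messenger RNA ends, and 7SK holds the elongation factor P-TEFb in an inactive complex. Most spliceosomal snRNAs carry an AU-rich site, the Sm site, on which a ring of Sm proteins is built. U6 and 7SK are made by RNA polymerase III and are not assembled on Sm proteins. The mouse genome also holds many near-copies and pseudogenes of these RNAs, so several features of the table differ by few bases or by none.

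Each feature was assigned to a class by its best match to the named snRNA genes of GENCODE M21. U6 had the largest number of listed features, 52, of which 9 were tested. U1 had 24 listed and 5 tested, U2 had 9 and 5, U12 had 5 and 5, and 7SK had 6 and 6. U11 had 4 listed features, U7 had 3 and U5 had 1, each with 1 tested. The named genes searched were of these classes only. None was of the further spliceosomal RNAs U4, U4atac and U6atac, so no feature could be classed as one. The remaining features matched no gene searched and were grouped by likeness to each other. Whether any of them is U4, U4atac or U6atac was not tested. They were a family around Gm25541 (11 listed, 4 tested), a family around Gm24695 (6 listed, 3 tested) and 4 single features, of which Gm22710 was tested.

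Printed here, as deposited, are 3 abundant members whose levels the report follows. Capitals mark each match to ATTTNTG or ATTTTTTG, letters searched as a simple form of the Sm site on the RNA strand. Rnu11 (FR082058) lies at chr4:132270080-132270213 on the minus strand of GRCm38, within an exon of the opposite-strand lincRNA Gm28872. Rnu12 (FR249206) lies at chr15:83149644-83149794, plus strand, in no other annotated gene. Gm22710 (FR405909) lies at chr1:118459141-118459265, minus strand, in an intron of Clasp1 on the opposite strand and within an exon of the antisense gene 2900060B14Rik on its own strand. Its annotated transcript has 125 of the 126 deposited bases.
U11 Rnu11: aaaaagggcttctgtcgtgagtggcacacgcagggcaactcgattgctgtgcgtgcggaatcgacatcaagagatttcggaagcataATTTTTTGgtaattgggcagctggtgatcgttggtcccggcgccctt
U12 Rnu12: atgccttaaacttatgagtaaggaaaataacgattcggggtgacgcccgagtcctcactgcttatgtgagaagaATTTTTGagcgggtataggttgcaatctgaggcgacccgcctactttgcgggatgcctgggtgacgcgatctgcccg
Gm22710: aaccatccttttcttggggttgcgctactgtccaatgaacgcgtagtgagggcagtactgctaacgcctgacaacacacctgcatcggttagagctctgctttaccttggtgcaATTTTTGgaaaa

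The next sequences show how far the U2-like features keep the letters of U2. The first is annotated U2 (Rnu2-10, GENCODE M21, chr11:101658238-101658428, plus strand, GRCm38), with the same motif in capitals. In the other two, capitals mark the stretch that aligned to Rnu2-10. Gm25007 (FR349724) matched over its first 59 bases at 98.3% identity, and lies in an intron of Csmd3, opposite strand, at chr15:48551308-48551440. Gm23907 (FR231715) matched over only 36 bases at 91.7% identity, and lies outside other annotated genes at chr15:65694549-65694737, plus strand. The annotated transcripts hold 133 of the 172 deposited bases of Gm25007 and 189 of the 194 of Gm23907.
U2 Rnu2-10: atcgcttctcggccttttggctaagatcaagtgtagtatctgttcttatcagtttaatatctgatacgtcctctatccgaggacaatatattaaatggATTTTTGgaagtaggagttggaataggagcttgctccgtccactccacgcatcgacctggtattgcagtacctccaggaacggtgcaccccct
U2-like Gm25007: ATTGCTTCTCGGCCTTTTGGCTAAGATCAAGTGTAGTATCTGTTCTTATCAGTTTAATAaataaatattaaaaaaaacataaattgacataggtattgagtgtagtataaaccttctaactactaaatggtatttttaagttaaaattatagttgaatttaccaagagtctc
U2-like Gm23907: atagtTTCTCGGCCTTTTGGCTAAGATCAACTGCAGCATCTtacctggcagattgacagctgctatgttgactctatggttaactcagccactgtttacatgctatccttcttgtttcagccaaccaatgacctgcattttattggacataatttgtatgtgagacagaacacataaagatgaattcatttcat

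The motif was found in 34 of the 125 snRNA features (27.2%) and in 13 of the 41 tested. Among the other small RNA features of 60 to 400 bases it was found in 44 of 1144 (3.85%). Those features were shorter, with a median of 85 bases against 124 in the snRNAs. On the reverse strand the shares were 7.2% in the snRNAs and 3.15% in the others. The match fell mostly in U1 (11 of 24 listed), U2 (6 of 9), U12 (4 of 5), U11 (3 of 4) and the single unnamed features (4 of 4). U6 had it in 4 of 52 listed and in 0 of 9 tested. Neither the Gm25541 family (0 of 11) nor the Gm24695 family (0 of 6) held these letters.

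The snRNA features together took 1.02% and 0.533% of all normalized counts in KO hypoxia, 1.09% and 0.617% in KO normoxia, 0.902% and 0.642% in WT hypoxia, and 0.84% and 0.67% in WT normoxia. In each group the library numbered 1 was the higher one, and the numbers 1 lay at 0.84% to 1.09% while the numbers 2 lay at 0.533% to 0.67%. The exact 95% binomial intervals were narrow, 1.012% to 1.025% for KO hypoxia library 1 and 0.5285% to 0.5371% for KO hypoxia library 2, so counting error was far below the gap between libraries of a group. The intervals treat a normalized count as a read and cover counting error only. These are bulk libraries, in which a lower level in all cells and a lower level in some of the cells cannot be told apart. Of the 41 tested features, 34 were higher in library 1 than in library 2 of KO hypoxia, 28 in KO normoxia, 28 in WT hypoxia and 25 in WT normoxia. The labels do not say what the numbers stand for. The groups overlapped in every comparison of this summed share.

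**Figure D1:**
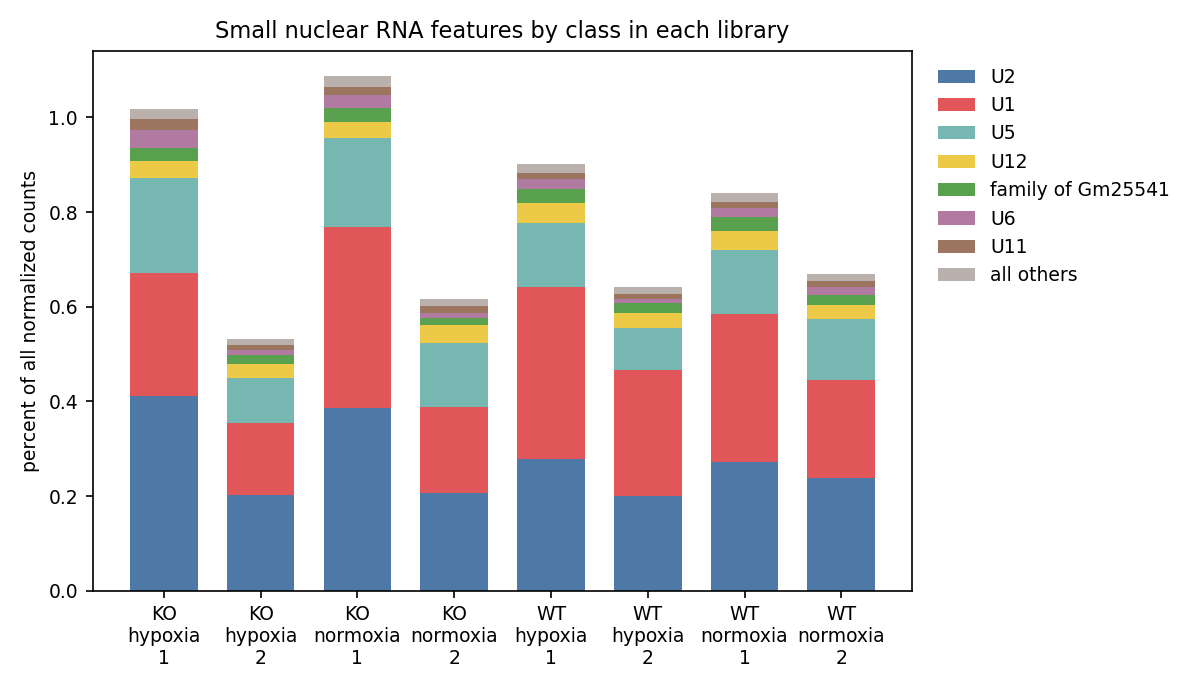
Stacked bars give the percent of all normalized counts in each of the 8 libraries that fell on snRNA features, split by class (0 at the base of the axis, no error bars since each bar is 1 library). U2, U1 and U5 make up most of every bar, and the bars of the libraries numbered 1 (0.84% to 1.09%) are taller than those numbered 2 (0.533% to 0.67%).

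U2, U1 and U5 held 34.689%, 33.735% and 17.529% of the mean snRNA sum. U12 followed with 4.536%, the Gm25541 family with 3.067%, U6 with 2.369% and U11 with 1.82%. 7SK (0.758%), the single unnamed features (0.753%), the Gm24695 family (0.665%) and U7 (0.077%) made up the rest. These shares count reads and are not corrected for length. Per 100 bases of feature, the mean normalized count was 16400 for the U1 feature Gm26244, 12100 for U5, 4210 for the longer U2 feature, 1150 for Rnu12, 1080 for Rnu11 and 1000 for the leading U6 feature. The longer U2 feature spans 379 bases, of which the annotated U2 is 191, so its value per base is diluted. Division by length takes reads as spread evenly along a feature, which these values do not show. In small RNA libraries, reads on snRNAs may be fragments. A difference in level and a difference in fragmentation or capture therefore cannot be told apart here, between classes or between libraries.

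U1 reads lay almost wholly on 1 feature. Gm26244 (ENSMUST00000083435, chr18:10150977-10151140, minus strand, in an intron of Rock1) held 99.4% of the U1 class. It had 24740 and 16962 normalized counts in KO hypoxia, 32866 and 18458 in KO normoxia, 35994 and 32047 in WT hypoxia, and 30501 and 23592 in WT normoxia. Both KO hypoxia libraries lay below both WT hypoxia libraries, while the KO and WT normoxia libraries overlapped. KO hypoxia minus WT hypoxia was -0.73 on the log2 scale (SE 0.34), with a limma adjusted p of 0.570. The difference between the genotypes in normoxia was -0.12 (SE 0.34, limma adjusted p 0.908).

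A named U1 gene differs from Gm26244 by little, with 99.4% identity over 164 bases. Even so, the 4 listed features whose sequence equals a named U1 gene had means of 1.38 to 2.5 normalized counts. Values of such near-copies therefore show where reads were assigned, and the level of a single U1 gene is uncertain. Another near-copy of U1, Gm24924 (99.4% identity), had 7 and 7 normalized counts in KO hypoxia, 3 and 6 in KO normoxia, 12 and 26 in WT hypoxia, and 9 and 2 in WT normoxia. Gm24924 was the 1 tested snRNA feature that passed the filter through a single group, WT hypoxia, so it was tested because it was high there, and its values are given as a description. Its log2 difference of WT hypoxia minus WT normoxia was 1.77, and 0.91 without WT normoxia library 2. Gm24145, at 80.6% identity to U1, had 70 and 49 in KO hypoxia, 40 and 117 in KO normoxia, 73 and 187 in WT hypoxia, and 56 and 53 in WT normoxia. The high values of Gm24145 were single libraries, WT hypoxia 2 and KO normoxia 2, and its difference of WT hypoxia minus WT normoxia was 1.09 (SE 0.56, limma adjusted p 1.00). Without WT hypoxia library 2 that difference was 0.42, and without WT hypoxia library 1 it was 1.76.

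U2 was listed in 2 long features that both contain Rnu2-10. The longer, FR171679, had 22452 and 12817 normalized counts in KO hypoxia, 19002 and 12358 in KO normoxia, 15862 and 14088 in WT hypoxia, and 15217 and 15768 in WT normoxia. The ratio of FR171679 to the other, FR395482, was 1.502 to 1.504 in every library, so they were read as 1 measurement. The KO libraries spread more widely than the WT libraries, which stayed between 14088 and 15862. KO hypoxia minus WT hypoxia was 0.18 (SE 0.33, limma adjusted p 0.967) and KO hypoxia minus KO normoxia 0.15 (SE 0.33, limma adjusted p 0.999).

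The ratio of summed U1 to summed U2 within a library removes any factor common to the library. It was chosen after the values were seen and was not tested. The ratio was 0.626 and 0.762 in KO hypoxia, 0.993 and 0.875 in KO normoxia, 1.31 and 1.33 in WT hypoxia, and 1.15 and 0.869 in WT normoxia. KO hypoxia lay below every other library, WT hypoxia above every other, and the normoxia groups overlapped.

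The U5 feature Gm23102 (FR388105) had 19519 and 10605 normalized counts in KO hypoxia, 16241 and 14040 in KO normoxia, 13324 and 10813 in WT hypoxia, and 13319 and 14620 in WT normoxia. The groups overlapped in all comparisons. Differences ran from -0.22 (SE 0.32, limma adjusted p 1.00) for WT hypoxia minus WT normoxia to 0.26 (SE 0.32, limma adjusted p 0.967) for KO hypoxia minus WT hypoxia.

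Rnu11, the U11 gene of the minor spliceosome, had 2196 and 1133 normalized counts in KO hypoxia, 1558 and 1408 in KO normoxia, 1409 and 1121 in WT hypoxia, and 1322 and 1468 in WT normoxia. Like U5, it was highest in KO hypoxia library 1, and its groups overlapped. The ratio of Gm23102 to Rnu11 stayed between 8.89 and 10.4 over the 8 libraries, a spread of 1.17 between the highest and the lowest. Over the 1067 features with at least 50 normalized counts in every library, the median spread of the ratio to Gm23102 was 2.45. The only feature with a smaller spread was a shorter listing of the same U11 gene typed as a small nucleolar RNA, which matched Rnu11 without a mismatch over 107 bases. Both values come from the same library each time and share its depth and scaling, so the ratio is a description, and it was chosen after the values were seen.

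**Figure D2:**
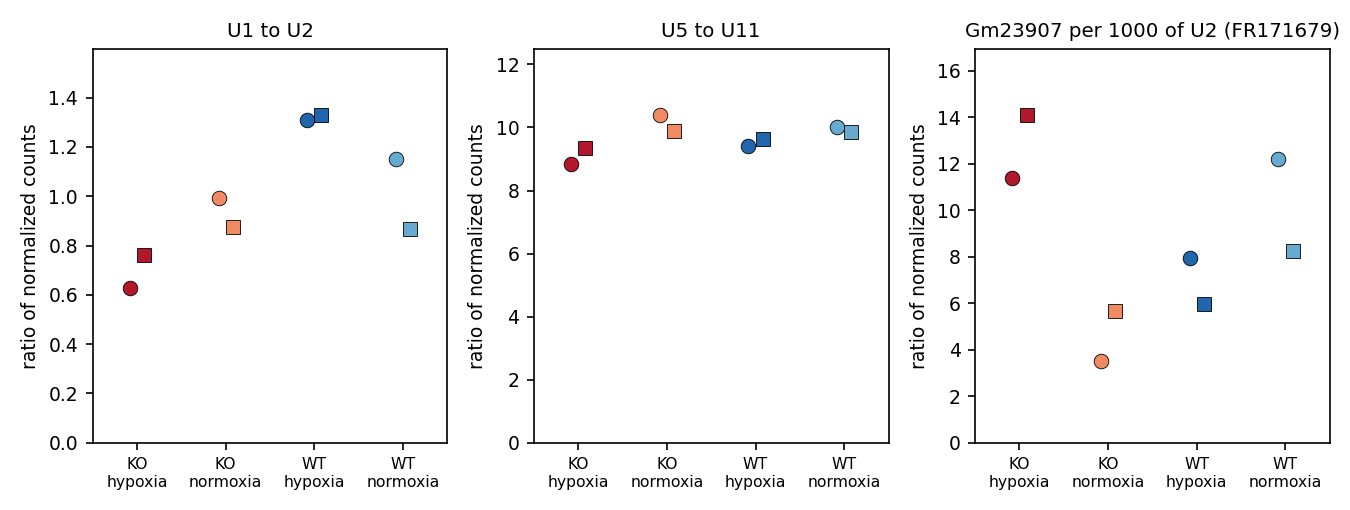
Each panel plots a ratio of normalized counts (axis from 0) in every library, circles for number 1 and squares for number 2. U1 to U2 is lowest in KO hypoxia (0.626 and 0.762) and highest in WT hypoxia (1.31 and 1.33), U5 to U11 stays between 8.84 and 10.4, and Gm23907 per 1000 of the U2 feature is 11.4 and 14.1 in KO hypoxia, against 3.53 and 5.66 in KO normoxia.

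Rnu12, the U12 gene, had 1607 and 1506 normalized counts in KO hypoxia, 1386 and 1939 in KO normoxia, 2025 and 1924 in WT hypoxia, and 1920 and 1611 in WT normoxia. FR297789 had nearly the same values in every library (ratio 1.001 to 1.002) and was read as the same measurement. Both KO hypoxia libraries lay below both WT hypoxia libraries, with a difference of -0.34 (SE 0.27, limma adjusted p 0.912). Rnu12 did not share the high value of U11 and U5 in KO hypoxia library 1, and the ratio of summed U11 to U12 ran from 0.283 in WT hypoxia library 2 to 0.64 in KO hypoxia library 1. The other 3 tested U12 features had means of 21.38 to 92.88 and matched Rnu12 at 95.4% to 96.6%. Of these, Gm23502 and Gm25703 were highest in KO hypoxia library 1, at 85 and 44 normalized counts. Gm24525 was highest in KO normoxia library 2, at 119.

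Among U6 features the highest was Gm24292 (ENSMUST00000082888), with 56.5% of the class. It had 1812 and 790 normalized counts in KO hypoxia, 1276 and 623 in KO normoxia, 1250 and 610 in WT hypoxia, and 1123 and 1110 in WT normoxia. The libraries numbered 1 were the higher ones in each group, and all groups overlapped. Of the 9 tested U6 features, 8 had a positive difference in KO hypoxia minus KO normoxia (from -0.13 to 1.32) and 8 in KO hypoxia minus WT hypoxia (from -0.34 to 0.90), and 0 passed the threshold. The high values were those of KO hypoxia library 1, where summed U6 was 3606 normalized counts, against 1328 in KO hypoxia library 2, 2256 and 1117 in KO normoxia, 1991 and 1090 in WT hypoxia, and 1759 and 2056 in WT normoxia. That library was also the one with the highest ribosomal RNA share, whose part in the result was not tested.

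U6 features may share reads, and so may not be separate measurements. Gm26427, Gm26295, Gm25547 and Gm24722 have the same sequence as Rnu6, of which GENCODE M21 holds 43 exact copies, and yet their means were 89.88, 32.25, 2.13 and 2.0 normalized counts. Gm26295 had 86 and 19 in KO hypoxia, 34 and 7 in KO normoxia, 22 and 24 in WT hypoxia, and 24 and 42 in WT normoxia. Its interaction, the KO hypoxia change minus the WT hypoxia change, was 1.77 (SE 1.13, limma adjusted p 1.00). Single libraries moved it, to 0.71 without KO hypoxia library 1, 0.70 without KO normoxia library 2, and 2.83 without KO hypoxia library 2 or without KO normoxia library 1. Which copy the reads came from cannot be told from these values.

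The 7SK class held 6 features that matched 7SK over 229 to 246 bases at 90.2% to 99.6% identity, and the annotated 7SK gene itself, Rn7sk, typed as a miscellaneous RNA, had a mean of 2.0 normalized counts. The highest, Gm26315, had 286 and 172 in KO hypoxia, 225 and 190 in KO normoxia, 202 and 172 in WT hypoxia, and 188 and 139 in WT normoxia. The KO normoxia libraries lay above the WT normoxia libraries by 0.35 (SE 0.34, limma adjusted p 0.693). All 6 had positive differences in KO normoxia minus WT normoxia (0.22 to 0.42) and in WT hypoxia minus WT normoxia (0.12 to 0.54), comparisons that share the WT normoxia libraries, and 0 of 6 passed the threshold in either. Being near-copies of each other, the 6 may share reads. Other features that matched 7SK less closely were typed as miscellaneous RNA, and their directions were mixed. In KO normoxia against WT normoxia, ENSMUST00000157251 had 24 and 12 against 47 and 25. ENSMUST00000158084 had 17 and 21 against 32 and 33, and ENSMUST00000122690 had 18 and 13 against 14 and 11. The feature that contains Rnu7 (FR277421) had 84 and 41 in KO hypoxia, 64 and 39 in KO normoxia, 61 and 47 in WT hypoxia, and 75 and 52 in WT normoxia, with all groups overlapping. Annotated Rnu7 lies at chr6:124741225-124741286 within an exon of Grcc10 on the same strand. It makes up 62 of the 267 bases of the feature, so these counts cannot be credited to U7 alone.

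Gm25541 led its family with 2604 and 1986 normalized counts in KO hypoxia, 2463 and 1355 in KO normoxia, 2910 and 2465 in WT hypoxia, and 2761 and 2366 in WT normoxia. KO normoxia minus WT normoxia was -0.48 (SE 0.33, limma adjusted p 0.568). The low value was KO normoxia library 2, and the groups overlapped. Gm24695 had 724 and 397 in KO hypoxia, 518 and 164 in KO normoxia, 534 and 380 in WT hypoxia, and 342 and 495 in WT normoxia, again lowest in KO normoxia library 2. In the same family FR054357 went the other way in that library, with 27 and 36 in KO hypoxia, 33 and 136 in KO normoxia, 24 and 30 in WT hypoxia, and 25 and 28 in WT normoxia. Its KO normoxia minus WT normoxia difference of 1.31 (SE 0.59, limma adjusted p 0.372) was 0.31 without KO normoxia library 2.

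The single unnamed feature Gm22710 had 413 and 434 normalized counts in KO hypoxia, 565 and 609 in KO normoxia, 606 and 703 in WT hypoxia, and 766 and 627 in WT normoxia. The means were 423.5 ± 14.8, 587.0 ± 31.1, 654.5 ± 68.6 and 696.5 ± 98.3 in that order of groups (SD, n = 2 each). Both KO libraries lay below both WT libraries at each oxygen level, and within KO both hypoxia libraries lay below both normoxia libraries. KO hypoxia minus WT hypoxia was -0.62 (SE 0.26, limma unadjusted p 0.0397, adjusted p 0.545) and KO normoxia minus WT normoxia -0.24 (SE 0.26, limma adjusted p 0.749). The mean KO effect over both oxygen levels was -0.43 (SE 0.19, limma unadjusted p 0.0431, adjusted p 0.258), the smallest adjusted p of any tested snRNA feature in that contrast. Over the alternatives that adjusted p ran from 0.156 to 0.863 and the difference from -0.50 to -0.24.

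The U2-like Gm23907 had the smallest p of the tested snRNA features in 4 contrasts. It had 255 and 181 normalized counts in KO hypoxia, 67 and 70 in KO normoxia, 126 and 84 in WT hypoxia, and 185 and 130 in WT normoxia. The means were 218.0 ± 52.3, 68.5 ± 2.12, 105.0 ± 29.7 and 157.5 ± 38.9 (SD, n = 2 each). Hypoxia libraries lay above normoxia libraries in KO and below them in WT, with no overlap in either genotype. KO hypoxia minus KO normoxia was 1.64 (SE 0.35, limma unadjusted p 9.06e-04, adjusted p 0.804). WT hypoxia minus WT normoxia was -0.59 (SE 0.35, limma adjusted p 1.00). The interaction of these changes was 2.22 (SE 0.49, limma unadjusted p 0.00119, adjusted p 0.917).

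Between the genotypes, Gm23907 differed by 1.05 in hypoxia (SE 0.35, limma unadjusted p 0.0129, adjusted p 0.493). In normoxia KO minus WT was -1.17 (SE 0.35, limma unadjusted p 0.00751, adjusted p 0.324). No contrast of Gm23907 passed the threshold after adjustment over 1540 features. It did not follow the U2 features that its first bases resemble. Per 1000 normalized counts of FR171679 it had 11.4 and 14.1 in KO hypoxia, 3.53 and 5.66 in KO normoxia, 7.94 and 5.96 in WT hypoxia, and 12.2 and 8.24 in WT normoxia. The interaction was 1.98 without KO hypoxia library 1, the library with the highest ribosomal RNA share.

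Gm25007, which shares a longer stretch with U2, had 1327 and 446 normalized counts in KO hypoxia, 837 and 365 in KO normoxia, 505 and 385 in WT hypoxia, and 629 and 472 in WT normoxia. Its high value was again KO hypoxia library 1, and the groups overlapped. Gm24666, matching U2 over 57 bases at 93.0%, had 781 and 449 in KO hypoxia, 648 and 287 in KO normoxia, 529 and 386 in WT hypoxia, and 516 and 427 in WT normoxia.

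**Figure D3:**
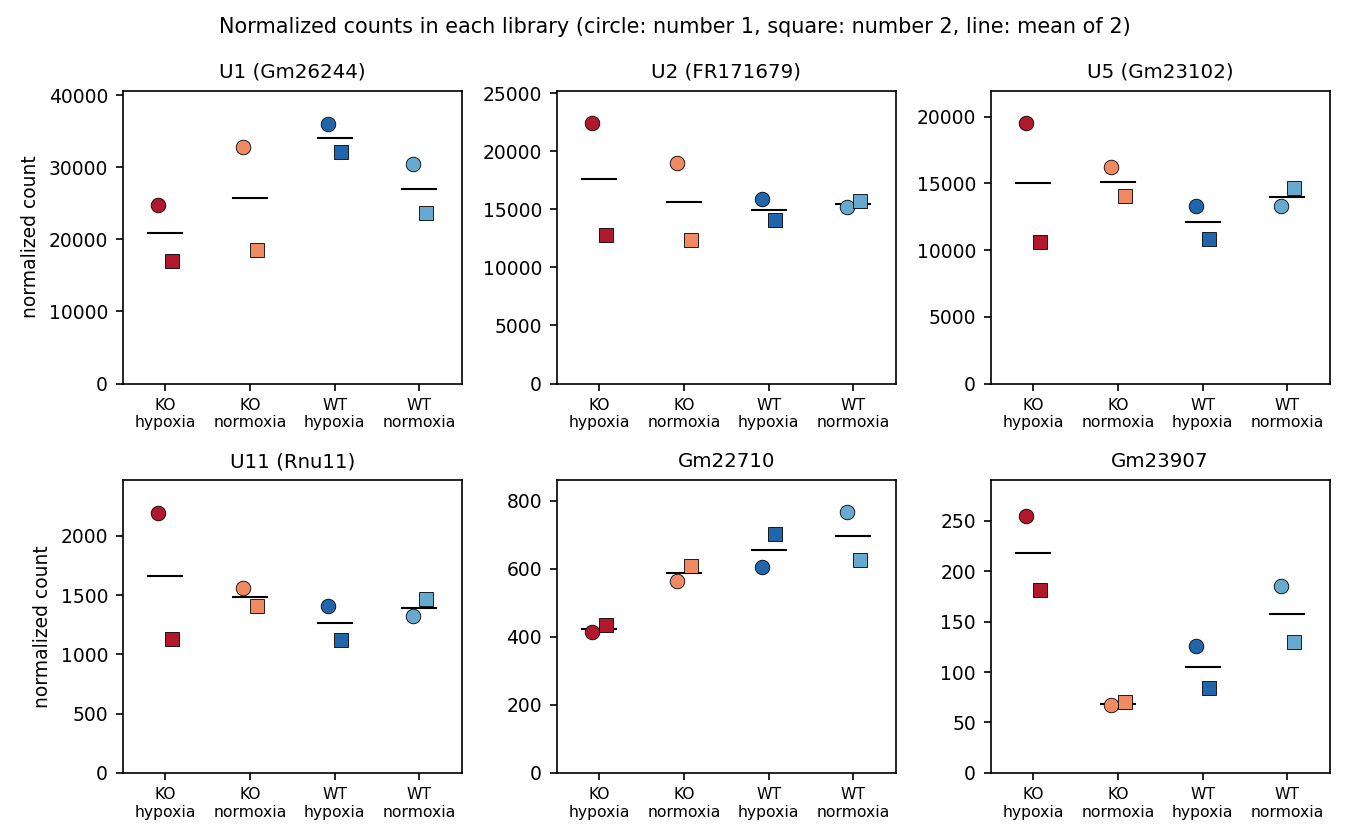
Normalized counts (axes from 0) of 6 snRNA features in every library, with circles for number 1, squares for number 2 and a line at the mean of 2 libraries. Gm22710 is lowest in KO hypoxia (413 and 434), Gm23907 is highest there (255 and 181) and lowest in KO normoxia (67 and 70), and U2, U5 and U11 have their highest point in KO hypoxia library 1.

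In KO hypoxia minus WT hypoxia, 0 of the 41 tested snRNA features passed an adjusted p of 0.05 in limma, beside 0.130% of all 1540 features. An unadjusted p under 0.05 was reached by 2 snRNA features, Gm23907 (higher in KO) and Gm22710 (lower in KO), where all features gave 9.03% in either direction. The groups did not overlap for 2 higher and 7 lower snRNA features, beside 19.2% and 16.6% of all features. The 2 higher were Gm23907 and a U1 feature, Gm25426, with 32 and 34 normalized counts in KO hypoxia against 27 and 18 in WT hypoxia. U1 features thus lay on both sides. The 7 lower included 3 U1 features (Gm26244, Gm24145 and Gm24924), both Rnu12 listings, the 7SK-like Gm24146 and Gm22710. Gm24924 was among them through the filter, as it was tested only for its WT hypoxia values. The median log2 difference was 0.18 over the snRNA features and -0.04 over all features. It was -0.21 without KO hypoxia library 1 and 0.59 without KO hypoxia library 2, so its sign rested on that pair of libraries.

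In KO normoxia minus WT normoxia, 0 of 41 passed the adjusted threshold in limma, beside 0.0649% of all features. Gm23907 was the single snRNA feature at an unadjusted p under 0.05 (lower in KO), where all features gave 13.4% in either direction. The groups did not overlap for 4 higher and 3 lower snRNA features, beside 21.9% and 20.0% of all features. The median difference was -0.06 over the snRNA features and -0.06 over all features, and it was -0.32 and 0.29 without KO normoxia library 1 or library 2.

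In KO hypoxia minus KO normoxia, 0 of 41 passed the adjusted threshold in limma, as did 0% of all features. Gm23907 alone had an unadjusted p under 0.05 (higher in hypoxia), beside 5.39% of all features in either direction. Groups did not overlap for 2 higher (Gm23907 and Gm24924) and 1 lower (Gm22710) snRNA features, beside 15.8% and 13.1% of all features. Gm24924 had only 7 and 7 normalized counts in KO hypoxia against 3 and 6 in KO normoxia. It was admitted for its WT hypoxia values, so nothing is read from it. The median was 0.15 over the snRNA features and 0.02 over all, and it was -0.27 without KO hypoxia library 1 and 0.55 without library 2.

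In WT hypoxia minus WT normoxia, 0 of 41 passed the adjusted threshold in limma, as did 0% of all features. The single snRNA feature at an unadjusted p under 0.05 was Gm24924, which the filter admitted for its WT hypoxia values, so nothing is read from it (all features gave 1.30% in either direction). Groups did not overlap for 9 higher and 2 lower snRNA features, beside 14.4% and 11.4% of all features. The 9 higher were 3 U1 features, both Rnu12 listings that share reads, 3 7SK-like features and Gm23879 of the Gm25541 family, and 1 of the U1 features was again Gm24924, admitted for those values. The 2 lower were Gm23907 and the U6 feature Gm26427. The median was 0.01 over the snRNA features and 0.02 over all, and between -0.06 and 0.14 when a library was left out.

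**Figure D4:**
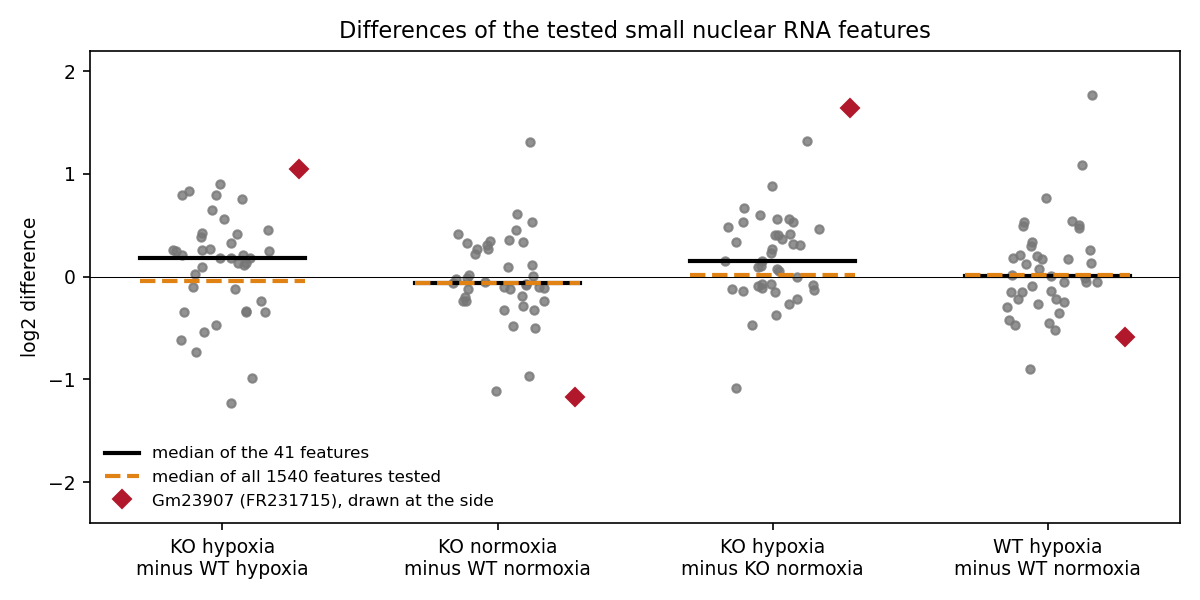
Log2 differences of the 41 tested snRNA features (points, spread sideways for legibility) in 4 comparisons, with the median of the 41 as a solid line and the median of all 1540 features as a dashed line. Gm23907, drawn as a diamond, is at 1.05, -1.17, 1.64 and -0.59, and the medians of the 41 are 0.18, -0.06, 0.15 and 0.01.

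For the interaction and for the mean hypoxia effect 0 of 41 passed the adjusted threshold in limma, as did 0% of all features, and for the mean KO effect it was 0 of 41 beside 0.130% of all. At an unadjusted p under 0.05 each gave 1 snRNA feature, Gm23907 for the interaction (all features 2.40%), Gm24924 for hypoxia (3.57%) and Gm22710 for KO (17.8%). Nothing is read from that of Gm24924, for the same reason. In the mean hypoxia effect the median over the snRNA features was 0.13, beside 0.03 over all features. That median was -0.06 without KO hypoxia library 1 and -0.03 without KO normoxia library 2.

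**Figure D5:**
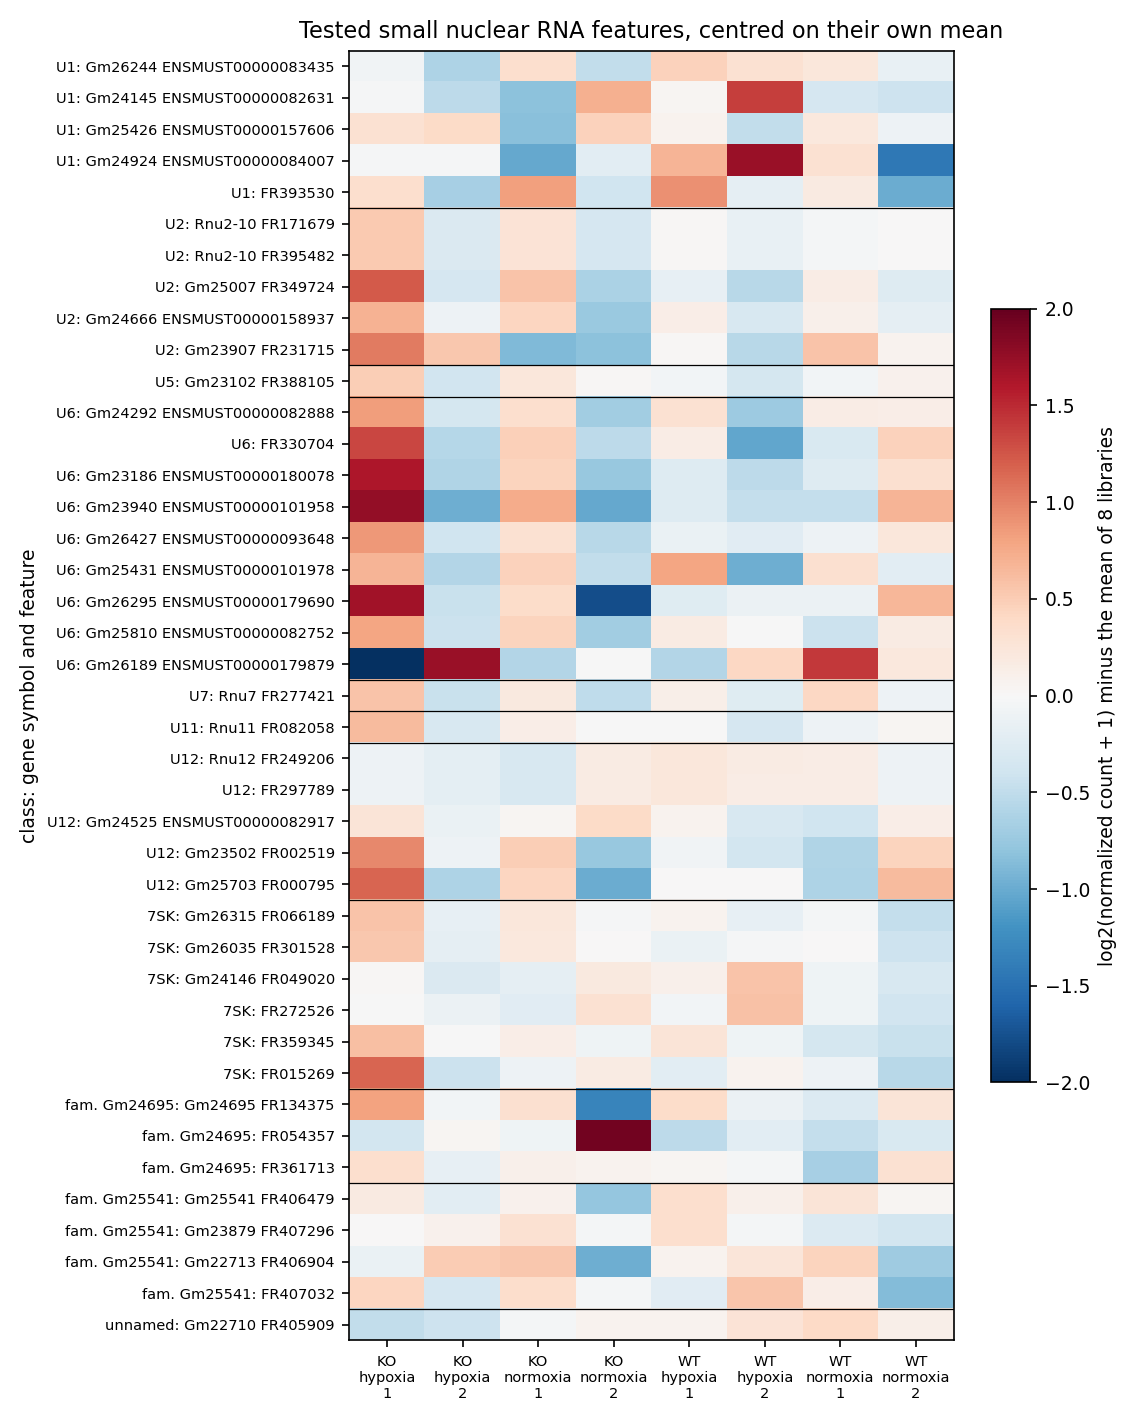
Each row is 1 of the 41 tested snRNA features, grouped by class, and each column 1 library. Colour gives log2(normalized count + 1) minus the mean of the feature over the 8 libraries, from -2 (blue) to 2 (red), with values beyond drawn at the end colours. Most U6 and U2 rows are reddest in KO hypoxia library 1, whereas Gm22710 is bluest in both KO hypoxia libraries.

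Of the 41 tested features, 30 could be placed in GRCm38, 24 by ID or exact sequence and 6 because the deposited sequence contains an annotated transcript. 16 of them lay inside another annotated gene, 3 of these in an exon, and 14 did not. Whether the authors counted reads by strand is not stated in the labels, so reads of a host gene and of a feature within it cannot be told apart.

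Other RNAs of the same pathway were the small Cajal body RNAs, which guide the modification of snRNAs, C/D RNAs described as guiding U6 modification, and further polymerase III and nuclear RNAs. Of these, 11 were tested, all of them small Cajal body or C/D RNAs. The further polymerase III and nuclear RNAs found were under the filter and not tested. Of the 11, 0 passed the threshold in any of the 7 contrasts, with list medians of -0.11 to 0.04. Scarna17 had 87 and 176 normalized counts in KO hypoxia, 129 and 122 in KO normoxia, 196 and 217 in WT hypoxia, and 219 and 192 in WT normoxia. All 4 KO libraries of Scarna17 lay below all 4 WT libraries, and its mean KO effect was -0.72 (SE 0.25, limma unadjusted p 0.0183, adjusted p 0.183). Scarna17 was named after its values were seen. Snord67, which guides U6, had 410 to 684 normalized counts over the 8 libraries, and its mean KO effect was 0.04 (SE 0.19, limma adjusted p 0.943).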

How the data were processed

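Small RNA libraries of the 8 samples were made from total RNA with the miRNeasy kit and, per the labels, a NEBNext set for small RNA on SOLiD. The deposited values are a score, read counts per feature that the authors' table names as normalized and that are whole numbers. Not given in the sources used here are the normalization, trimming, aligner, genome build and treatment of reads with several matches. Low values fell on multiples of 0.826 to 1.138 per library, the worth of 1 read, except in WT normoxia library 1, whose step could not be told from 1, so libraries held about 7573489 to 13482280 assigned reads. A count of 0 allows a share of up to 2.47e-05% to 3.48e-05% (3 counts of the total). No per-sample column was left out. Intervals in the table for the FR features do not follow GRCm38 (14 of 14 compared), while those of ENSMUST features mostly do (83 of 85), so coordinates are printed from GENCODE M21 only. The sequence of 1 feature is not reported here. Members were matched to GENCODE M21 by ID (85), exact sequence (14) or containment of a transcript (10), and 16 were unmatched.

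Classes came from blastn 2.17.0 against named snRNA genes (bit score of at least 40 over at least 30 aligned bases). Features with at least 10 in at least 2 libraries were tested with limma 3.58.1 (intensity trend, R 4.3.3) on log2(value + 1), with 4 group means over 8 libraries, 4 residual and 5.64 prior degrees of freedom, and Benjamini-Hochberg adjustment over 1540 features at 0.05. Since the deposited values are not raw counts, no count test was run. Fold changes are on the log2(value + 1) scale, which understates those of low features. The fit was run on simulated data drawn without any difference by replicate number. That run does not cover differences between libraries numbered 1 and 2. Named features were the 8 highest, the 3 with the smallest p in each contrast, the highest of each class, and listings with the same values. Gm25007, Gm24666, Gm26427, Gm25547, Gm24722, Gm24146, Gm23879, Gm23502, Gm25703, Gm24525, Gm25426, Scarna17 and Snord67 were named outside this rule, after seeing their values. So were ENSMUST00000157251, ENSMUST00000158084 and ENSMUST00000122690. The members, lists and tests were chosen with earlier results of these data known. Replicate numbers were not taken as pairs, since the labels do not say what they mark. Alternatives were no filter on low values, a minimum mean of 50, pseudocounts of 8 and 0.5, scaling by trimmed mean of M values (TMM), quantile normalization, the microRNA total, no trend, a replicate block, the groups of a contrast alone, and leaving out each library.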

Additional observations from a re-analysis of the deposited data

Results flagged for a closer look

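In these libraries Gm23907 (FR231715) was higher in hypoxia than in normoxia in KO, and lower in hypoxia than in normoxia in WT. The log2 change in KO (hypoxia minus normoxia) minus that in WT was 2.22 (SE 0.49, limma unadjusted p 0.00119, adjusted p 0.917 over 1540 features). Every KO hypoxia library lay above every KO normoxia library, and every WT hypoxia library lay below every WT normoxia library. Opposite moves without overlap were the rule for the flag, applied to the tested snRNA features. Of all features, 15.8% lay higher without overlap in KO hypoxia than in KO normoxia. In WT, 11.4% lay lower without overlap in hypoxia than in normoxia. The share of all features that did both was not computed. The same value, 2.22, is the KO difference in hypoxia minus the KO difference in normoxia. The difference was tested by the interaction term and did not pass the threshold after adjustment. Over the alternatives it ran from 1.93 to 2.51, with adjusted p from 0.196 to 1.00.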

How the results depend on the processing

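With 2 libraries a group, 0 of the tested snRNA features passed the threshold in any contrast under any alternative run. The calls over all features moved more. WT hypoxia minus WT normoxia called 0 features, and 1 with a pseudocount of 8, 1 with a mean of at least 50 and 8 with the replicate block. KO normoxia minus WT normoxia called 1, and 2 without the intensity trend or (range over libraries left out, 1 to 2) without WT hypoxia replicate 2. The mean hypoxia effect called 0, and 3 with the replicate block. The mean KO effect called 2 (0 higher, 2 lower), and 16 with TMM factors (13 higher, 3 lower), 85 with the microRNA total (81 higher, 4 lower) and 91 with the replicate block; leaving out 1 library gave 2 to 29, with 29 without WT hypoxia replicate 2 and 4 without KO hypoxia replicate 2. The microRNA total moved the median of all features in the mean KO effect to 0.13 from -0.06 and that of the snRNA features to 0.28 from 0.08, and the median of all features to 0.17 for KO normoxia minus WT normoxia, 0.11 for KO hypoxia minus WT hypoxia and -0.13 for KO hypoxia minus KO normoxia. The cause was not tested in any of these.

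The medians of the snRNA features depended on single libraries: leaving out 1 library gave -0.27 to 0.55 for KO hypoxia minus KO normoxia, -0.32 to 0.29 for KO normoxia minus WT normoxia, -0.21 to 0.59 for KO hypoxia minus WT hypoxia, -0.29 to 0.59 for the interaction, -0.12 to 0.33 for the mean KO effect, -0.06 to 0.29 for the mean hypoxia effect and -0.06 to 0.14 for WT hypoxia minus WT normoxia. The log2 ratio of the share of the single unnamed features (KO hypoxia to WT hypoxia) was -0.46 as a share of the microRNA total. As a share of all features it was slightly more negative, so its direction was the same under either total. With the replicate block, Gm23907 had adjusted p of 0.144 (KO hypoxia minus KO normoxia) and 0.196 (interaction), and no snRNA call changed. Deviations by number correlated between groups with r from 0.15 to 0.55 over all features and from -0.54 to 0.55 over the snRNA features. Values near 1 read cannot be resolved.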
